A study of Mus musculus with 4 samples.

Results

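The kidney lineage transcription factors described here are 8 genes, Pax2, Pax8, Wt1, Lhx1, Hnf4a, Hnf4g, Emx2 and Sall1. They were taken by gene name from the array's own annotation, which gave 11 probes of the 39429 probes for transcripts (29875 gene names). The rule used gene names and no measured value, but the genes were chosen with earlier results of these data known. Of the 11 probes, 8 were bright enough to be tested, for 7 of the 8 genes. Wt1 and Hnf4a had higher signals in the cells without SerpinB2 (1.74-fold and 1.48-fold). Both calls were lost with no filter on dim probes and with an unmoderated test. Of the 8 tested probes, 2 were called higher and none lower, against 5.79% higher and 10.2% lower of all probes tested.

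RNA came from primary kidney tubular cells of male mice of the B6.J background, 8 weeks old, grown in a renal growth medium. The wild type group held 2 samples and the SerpinB2-/- group, whose Serpinb2 gene is inactivated, held 2 samples. Every culture of both groups had received the phorbol ester PMA, an activator of protein kinase C, at 100 ng/ml, and no untreated cells were measured. Serpinb2 encodes plasminogen activator inhibitor-2, whose role in kidney injury and ageing is the question of the series. The labels do not say whether the 2 samples of a genotype came from separate mice, so p-values measure the spread between these samples, which may be technical.

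In the embryo, Pax2, Pax8, Lhx1, Wt1, Sall1 and Emx2 act in the nephric lineage, the tissue from which the tubules and the filter of the kidney form. Pax8 and Pax2 are paired-domain factors that persist in parts of the adult tubule, whereas Wt1 is kept in podocytes, the cells of the glomerular filter. Hnf4a and Hnf4g are nuclear receptors of the proximal tubule, where Hnf4a drives the late steps of proximal tubule differentiation.

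Each probe is a single strand of 60 bases printed on 4 spots, and its place decides which transcripts it can read. The 5′ probe of Pax2, in the part that encodes the paired domain, lies at chr19:44835420-44835479 (mm9, plus strand). The 3′ probe of Pax2, in the part that encodes the end of the protein, lies at chr19:44909895-44909954, also on the plus strand. The gapped probe of Lhx1 covers 153 bases of the minus strand at chr11:84335442-84335594, with 93 bases skipped. These 3 probes are shown because only the 3′ one of these Pax2 probes was above background and the Lhx1 probe lies across a gap. Of the probes for Wt1 (chr2:105013656-105013715, plus strand) and Hnf4a (chr2:163398548-163398607, plus strand), the first 30 bases are given, since these are the probes whose signals rose. No letters are in capitals here, and no annotation of this build was used to place the other probes in exons or untranslated regions.
Pax2 5′ probe: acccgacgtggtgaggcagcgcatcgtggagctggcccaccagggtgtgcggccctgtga
Pax2 3′ probe: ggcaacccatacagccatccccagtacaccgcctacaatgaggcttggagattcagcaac
Lhx1 gapped probe: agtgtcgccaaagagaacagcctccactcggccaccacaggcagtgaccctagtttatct
Wt1 probe, first 30 bases: ggtattagctgcatcactgtgtggatgtca
Hnf4a probe, first 30 bases: ggggtaaaaaagagaaaaagccctcaaaaa

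A single slide and 1 scan held all 4 arrays. Wild type took the first positions and SerpinB2-/- the last, so position and genotype cannot be told apart. The count of probes well above background ran from 23409 to 24476. The median absolute log2 difference between arrays was 0.08 within each genotype and 0.14 to 0.16 across genotypes. The Serpinb2 probe gave 3047 and 3382 units in wild type and 5.86 and 7.04 units in SerpinB2-/- before scaling, at least 139.7-fold lower. That probe passed the filter through wild type alone, so no p-value is given. The labels do not say which part of Serpinb2 was deleted. Of 14 proximal tubule markers, 10 were measured, among them the endocytic receptors Lrp2 and Cubn. The transporters Slc5a2, Slc5a12 and Slc22a8 and the brush border enzyme Dpep1 were not well above background on both arrays of either genotype. Of 14 markers of the distal nephron and collecting duct, 4 were measured. Markers of endothelial cells (10 of 11), leukocytes (10 of 10) and fibroblasts and pericytes (9 of 12) were measured as well, so the cultures also held RNA of genes that mark other cell types.

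Signals of the members are given below in units scaled so that each array has a 75th percentile of 2003 units, and they compare arrays, not probes. Of all 24174 probes tested, 16.0% were called at an adjusted p under 0.05 (5.79% higher and 10.2% lower in SerpinB2-/-). Among the 8 tested member probes, 2 were called, both higher, and their median log2 difference was 0.15. The groups did not overlap at 5 of the 8 probes, against 64.7% of all probes tested. In bulk RNA, a change in the number of cells of a type and a change in RNA per cell cannot be told apart.

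**Figure D1:**
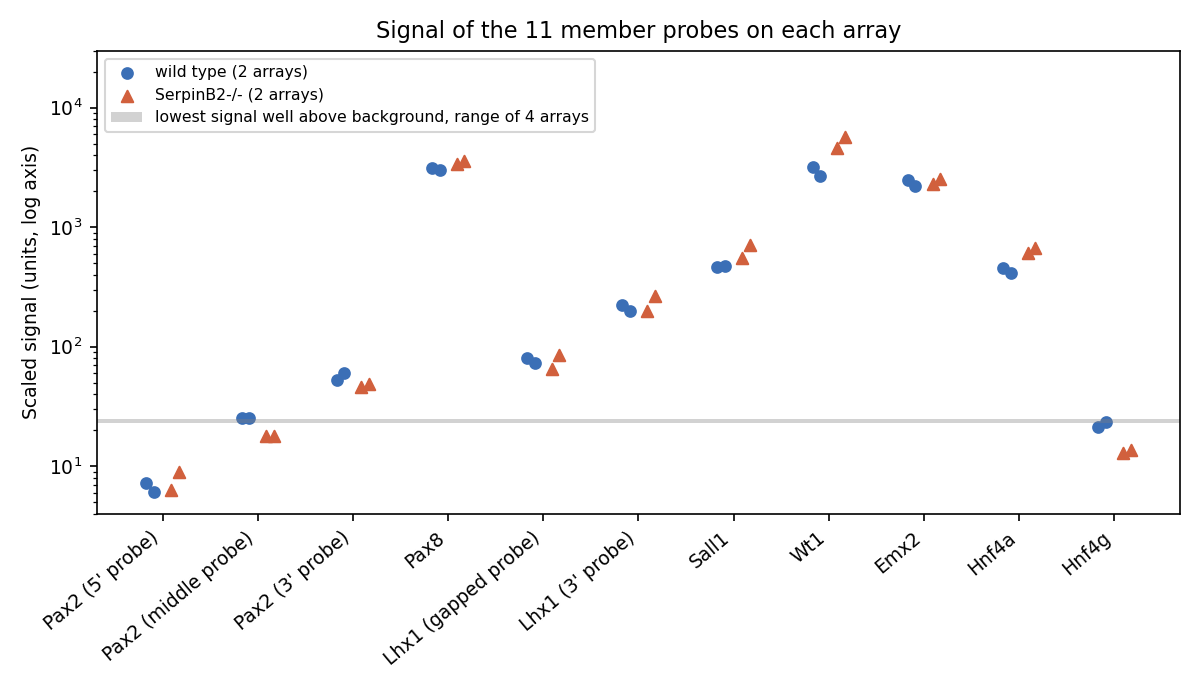
Scaled signal (units, log axis) of the 11 probes of the 8 genes on each of the 4 arrays, with wild type as circles and SerpinB2-/- as triangles. The grey band spans the lowest signal well above background on the 4 arrays. Both SerpinB2-/- arrays lie above both wild type arrays for Wt1, Hnf4a, Sall1 and Pax8, and the Pax2 5′ probe and the Hnf4g probe lie at or under the band.

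Pax8, which marks the adult tubule and nephric lineage, gave 3142 and 3006 units in wild type and 3373 and 3574 units in SerpinB2-/- (chr2:24276147-24276206, minus strand). Both SerpinB2-/- arrays were above both wild type arrays, by little. The log2 difference of 0.18 ± 0.07 (SE, n = 2 and 2) did not pass the test (limma with Benjamini-Hochberg adjustment, adjusted p = 0.132), with a 95% interval of 0.01 to 0.34. Scaling by the median in place of the 75th percentile raised it to 0.31 (adjusted p = 0.0281, limma).

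Pax2, the paralog of Pax8 that is needed for the ureteric bud and the early nephron, was read by 3 probes that differed in whether they gave any signal. The 3′ probe gave 52.2 and 60.4 units in wild type and 46.3 and 48.6 units in SerpinB2-/-. Both SerpinB2-/- arrays were the lower ones, with a log2 difference of -0.24 ± 0.09 (SE, n = 2 and 2) that did not pass the test (limma with Benjamini-Hochberg adjustment, adjusted p = 0.130). The same difference was -0.02 with normexp background correction, -0.10 with outlier spots kept, and -0.11 with quantile normalization and with median scaling. Without wild type sample 2 it was -0.14. In the other direction, it was -0.35 without wild type sample 1 and -0.28 without SerpinB2-/- sample 2. Scaling by the 75th percentile of probes well above background on all arrays also gave -0.28. In the 17 alternatives the Pax2 difference was never called. The 5′ probe in the paired domain, with a GC content of 70%, gave 7.29 and 6.07 units in wild type and 6.37 and 8.89 units in SerpinB2-/-. It was not well above background in any spot of any array and was not tested. The middle probe, at chr19:44871124-44871183 on the plus strand, gave 25.1 units on both wild type arrays and 17.9 units on both SerpinB2-/- arrays. Only 1 spot on each wild type array was well above background there, so it was not tested either. The test of Pax2 thus rests on the 3′ probe alone.

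Lhx1, a LIM homeodomain factor of the renal vesicle, was measured by both of its probes without a difference that passed the test. The probe at chr11:84331888-84331947 (minus strand) gave 222 and 199.8 units in wild type and 199.9 and 265 units in SerpinB2-/-. The groups overlapped, and the log2 difference was 0.13 ± 0.15 (SE, n = 2 and 2) with a 95% interval of -0.25 to 0.51. The gapped probe gave 80.4 and 72.5 units in wild type and 65.1 and 84.5 units in SerpinB2-/-. The groups overlapped again, with a log2 difference of -0.04 ± 0.14 (SE) and an interval of -0.40 to 0.32. At both probes SerpinB2-/- sample 2 was the highest of the 4 arrays. The sign at the gapped probe turned with the scaling (0.09 with median scaling and with quantile normalization).

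Sall1, a zinc finger factor needed for outgrowth of the ureteric bud, gave 468 and 471 units in wild type and 552 and 707 units in SerpinB2-/- (chr8:91551278-91551337, minus strand). Both SerpinB2-/- arrays were higher and lay further from each other than the wild type arrays did. The log2 difference of 0.41 ± 0.13 (SE, n = 2 and 2; 95% interval 0.09 to 0.74) did not pass the test (limma with Benjamini-Hochberg adjustment, adjusted p = 0.0893). It passed with median scaling (0.55, adjusted p = 0.0244, limma) and without SerpinB2-/- sample 1 (0.59, adjusted p = 0.0231, limma). Without SerpinB2-/- sample 2 it was 0.23 (adjusted p = 0.182, limma).

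Wt1, the zinc finger factor of podocytes and of the embryonic kidney mesenchyme, gave 3221 and 2658 units in wild type and 4578 and 5675 units in SerpinB2-/-. The spots used on the SerpinB2-/- arrays (4528 to 4638 and 5625 to 5748 units) were all above those used on the wild type arrays (3212 to 3225 and 2644 to 2666 units). On both wild type arrays and on SerpinB2-/- sample 2, 1 spot of 4 was left out as an outlier, and the log2 difference with such spots kept was 0.81. Wt1 rose by 0.80 ± 0.14 on the log2 scale (SE, n = 2 and 2; 95% interval 0.43 to 1.17), which is 1.74-fold (limma with Benjamini-Hochberg adjustment, adjusted p = 0.0275). The call was lost without wild type sample 2 (0.66, adjusted p = 0.0794, limma) and without SerpinB2-/- sample 2 (0.65, adjusted p = 0.0549, limma). Over 17 alternatives the difference stayed between 0.65 and 0.96 and was called in 13.

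Markers of the cell types in which Wt1 is known did not all move with it. Of 10 podocyte markers, 6 were measured, of which 1 rose (Foxc2, 0.41), 1 fell and 4 were not called. The summed podocyte level was 2.26 to 2.29 in wild type and 2.02 to 2.29 in SerpinB2-/-, in units of each array's 75th percentile. Nphs1, which encodes nephrin of the slit diaphragm, gave 52.2 and 55.2 units in wild type and 53.0 and 50.4 units in SerpinB2-/-. Wt1 also marks mesothelial cells: of their markers on the array, Msln (-1.33) and Krt19 (-0.77) fell and Upk3b, Upk1b, Lrrn4 and Calb2 were not well above background. The summed level of the 2 measured, Msln and Krt19, was 24.3 and 28.0 in wild type and 12.6 and 12.3 in SerpinB2-/-. Of 12 fibroblast and pericyte markers, 9 were measured and 3 rose, Postn (1.09), Col3a1 (0.81) and Foxd1 (0.78), with none called lower (6 higher with median scaling, 4 with normexp correction and 2 with quantile normalization). Their summed level was 140 to 172 in wild type and 181 to 210 in SerpinB2-/-. Of 10 measured endothelial markers 7 fell and 1 rose, of 10 leukocyte markers 6 fell and none was called higher (3 lower with quantile normalization), and of 5 measured urothelial markers none was called in either direction. The part of these markers in the Wt1 difference was not tested.

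Hnf4a gave 456 and 411 units in wild type and 613 and 669 units in SerpinB2-/-. Both SerpinB2-/- arrays were above both wild type arrays, although single spots overlapped at the edge (391.7 to 563.8 and 363.6 to 445.9 units in wild type, 552.7 to 658.5 and 586.5 to 712 units in SerpinB2-/-). Hnf4a rose by 0.57 ± 0.08 on the log2 scale (SE, n = 2 and 2; 95% interval 0.35 to 0.78), which is 1.48-fold (limma with Benjamini-Hochberg adjustment, adjusted p = 0.0186). The call was lost without wild type sample 2 (0.49, adjusted p = 0.0643, limma) and without SerpinB2-/- sample 2 (0.50, adjusted p = 0.0532, limma). Over 17 alternatives the difference stayed between 0.49 and 0.70 and was called in 13.

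Proximal tubule markers, the cells in which Hnf4a is known to act, had a summed level of 5.05 to 5.27 in wild type and 5.07 to 5.14 in SerpinB2-/-. Of the 10 measured, Alpl, alkaline phosphatase, rose (0.98), Anpep, a brush border aminopeptidase, fell (-0.60) and 8 were not called, with a median of 0.00. Lrp2 gave a log2 difference of 0.01 and Cubn one of 0.01. Their part in the Hnf4a difference was not tested.

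**Figure D2:**
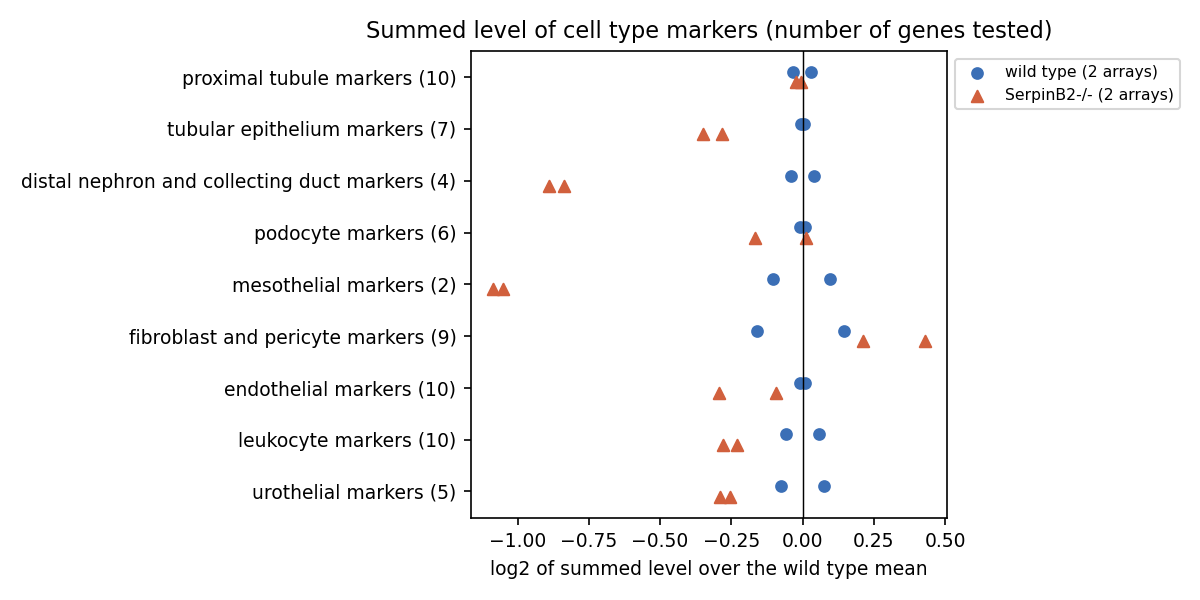
Summed level of the measured markers of 9 cell types on each array, as log2 of its ratio to the wild type mean, with wild type as circles and SerpinB2-/- as triangles. The sums of mesothelial, distal nephron, tubular epithelium, endothelial, leukocyte and urothelial markers are lower in both SerpinB2-/- arrays. The fibroblast and pericyte sum is higher, and the proximal tubule and podocyte sums overlap. The mesothelial sum holds 2 genes, Msln and Krt19.

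Hnf4g, the paralog of Hnf4a, gave 21.2 and 23.6 units in wild type and 12.9 and 13.6 units in SerpinB2-/- (chr3:3657265-3657324, plus strand). It was not well above background on either genotype and has no test. Emx2, a homeodomain factor of the early urogenital system, gave 2492 and 2219 units in wild type and 2291 and 2547 units in SerpinB2-/- (chr19:59539142-59539201, plus strand). Its groups overlapped, and the log2 difference was 0.04 ± 0.09 (SE, n = 2 and 2) with a 95% interval of -0.20 to 0.27.

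**Figure D3:**
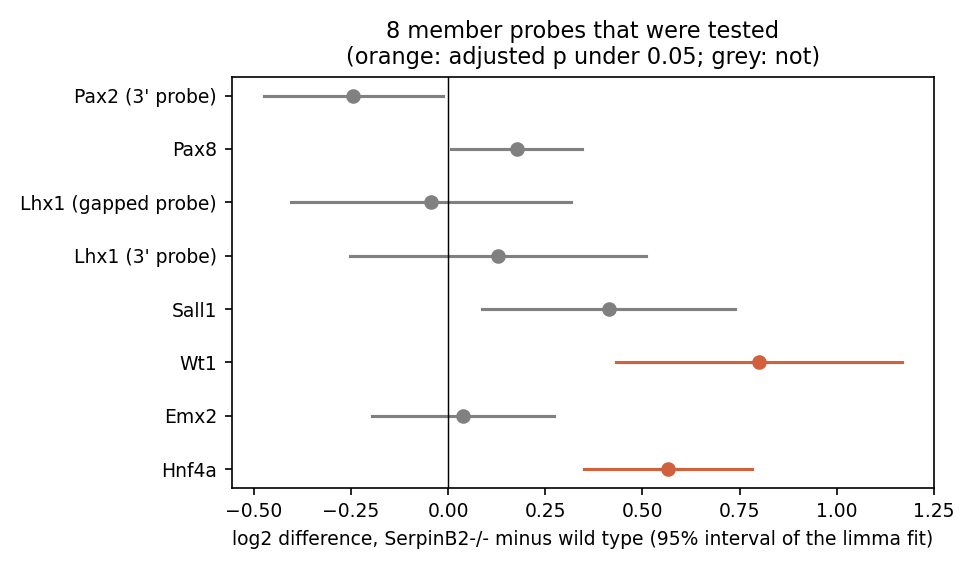
Log2 difference between SerpinB2-/- and wild type at the 8 tested probes (points), with the 95% interval of the limma fit (lines). Orange marks the probes called at an adjusted p under 0.05, which are Wt1 (0.80) and Hnf4a (0.57), and the intervals of both Lhx1 probes and of Emx2 include 0.

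By the distance between the 4 centred log2 values, the genes nearest to Wt1 among 17667 were Adra2a, an adrenergic receptor (distance 0.04), Antxr1, an anthrax toxin receptor (0.08), and Tmeff2 (0.11). The genes nearest to Hnf4a were Pdgfc, a platelet-derived growth factor (0.01), 2810408I11Rik (0.02) and Cdkn2d, a cell cycle inhibitor (0.02). Within a distance of 0.1, 43 genes lay near Hnf4a and 2 near Wt1. These distances rest on 4 arrays.

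Genes that share the pathways of the 8 factors were read in 7 lists of 116 genes, of which 90 were measured at the brightest probe of each gene. Of these, 4 were called higher and 17 lower, against 6.04% higher and 9.75% lower of all 18392 genes tested (15.8% in either direction). Their median log2 difference was -0.06, against 0.01 for all genes. With any 1 array left out, between 12 and 14 of the 90 were called. Scaling by the median shifted the median of all genes to 0.14, with 4128 of the 18392 genes called higher and 1225 lower. Of the 90 list genes, 12 were then called higher and 14 lower. The median-scaled counts of the lists below are given beside the others and stand against these median-scaled counts of all genes.

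Among the 7 lists, which were chosen with earlier results of these data known, the tubule segment transcription factors had the most calls. Of 21 measured, 8 fell and none was called higher (median -0.18), against 7 lower and 2 higher with median scaling (median -0.05). Tfap2b, a factor of the distal nephron, gave 442 and 469 units in wild type and 192 and 194 units in SerpinB2-/-, a log2 difference of -1.24 ± 0.06 (SE; limma with Benjamini-Hochberg adjustment, adjusted p = 0.00672). Its paralog Tfap2a fell by 0.94 ± 0.08, and Ehf, an epithelial ETS factor, fell by 0.90 ± 0.10. Gata3, a factor of the nephric duct and collecting duct, gave 824 and 851 units in wild type and 459 and 521 units in SerpinB2-/-, a log2 difference of -0.78 ± 0.08 (SE; limma, adjusted p = 0.0100). Esrrb, Tfcp2l1 and Grhl2 also fell (-0.76, -0.61 and -0.67). These 7 genes kept their call in 14 of 16 alternatives, all but the fit with no filter and the unmoderated test. Beside them, 2 of the 4 measured distal nephron and collecting duct markers fell, Scnn1a (-1.22), a subunit of the epithelial sodium channel, and Hsd11b2 (-1.10), which inactivates glucocorticoids. Of 7 measured markers of tubular epithelium in general, 5 fell, among them Cdh1 (-0.79), the gene of E-cadherin, and none was called higher. Their summed level was 297 to 299 in wild type and 234 to 245 in SerpinB2-/-, and the part of these markers in the falls was not tested.

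Among 15 measured regulators of nephron progenitors and the early nephron, 2 rose and 3 fell (median -0.06), against 2 higher and 2 lower with median scaling (median 0.07). Foxd1, which marks the stromal progenitors of the kidney, gave 352 and 339 units in wild type and 541 and 655 units in SerpinB2-/-, a rise of 0.78 ± 0.11 (SE; limma with Benjamini-Hochberg adjustment, adjusted p = 0.0154). Without either wild type array it was not called (0.76 to 0.81, adjusted p 0.0536 to 0.0585, limma). Bmp7, a growth factor that keeps nephron progenitors alive, gave 3820 and 4044 units in wild type and 2432 and 2361 units in SerpinB2-/-, a log2 difference of -0.71 ± 0.06 (SE; limma, adjusted p = 0.00791). Meox1 was at least 2.61-fold lower in SerpinB2-/-, whose arrays were both at background for it, and its log2 difference was -0.61 with normexp correction. It passed the filter through wild type alone, so its p-value rests on background values in SerpinB2-/- and is not given. With only probes well above background on all 4 arrays, Meox1 was not tested. Osr1, an early marker of intermediate mesoderm, rose by 0.30 ± 0.06 and was called in 8 of 16 alternatives, and Six2, which marks the cap mesenchyme, fell by 0.41 ± 0.09 and was called in 3 of 16. Wnt4, Gdnf and Ret, whose products act between the bud and the mesenchyme, were not called (-0.43, -0.08 and -0.12).

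Of 18 measured target genes that the literature ties to Pax2, Pax8, Lhx1 or Wt1, 2 rose and 3 fell (median -0.07), against 4 higher and 3 lower with median scaling (median 0.07). Sulf1, a heparan sulphate sulphatase, gave 1422 and 1228 units in wild type and 2032 and 2149 units in SerpinB2-/-, a rise of 0.66 ± 0.09 (SE; limma with Benjamini-Hochberg adjustment, adjusted p = 0.0162). Dusp6, an ERK phosphatase, rose by 0.29 ± 0.07 and was called in 6 of 16 alternatives. Gata3 belongs to this list too, and Cdh16, a tubular cadherin, fell by 0.51 ± 0.10 and was called in 10 of 16 alternatives. Bcl2, the survival factor, fell by 0.48 ± 0.06. Nphs1 and Podxl, podocyte genes, gave -0.06 and -0.03 and were not called.

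Of the 27 target genes of Hnf4a and related factors of liver and kidney on the array, 16 were measured, and 1 of them fell with none higher (median -0.03), against 1 lower and 3 higher with median scaling (median 0.10). Apob, the apolipoprotein of lipoprotein particles, gave 109 and 95.4 units in wild type and was not well above background in SerpinB2-/-, at least 4.40-fold lower. It passed the filter through wild type alone, so its p-value rests on background values in SerpinB2-/- and is not given. With only probes well above background on all 4 arrays, Apob was not tested. With normexp correction the Apob log2 difference was -1.03. Apoa2, Apoc3 and Mttp, which belong to the same lipoprotein pathway, gave -0.06, -0.06 and -0.16 and were not called. The other targets of this list that were measured lay between -0.28 (Pklr) and 0.27 (Cdh6). Pck1, Ttr and Umod were among the 11 that were not measured.

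**Figure D4:**
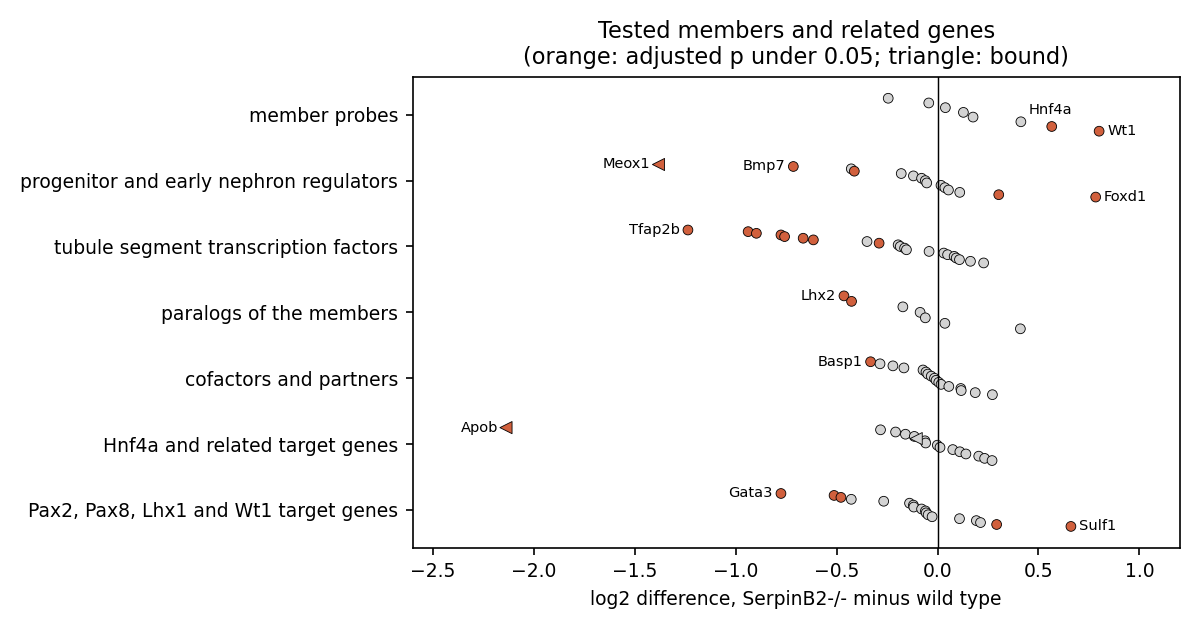
Log2 difference between SerpinB2-/- and wild type for the 8 tested member probes and for the measured genes of 6 related lists, 1 point per probe or gene, with orange for an adjusted p under 0.05. Triangles mark genes not well above background in SerpinB2-/- at their bound, which holds for Apob, Meox1 and the uncalled G6pc. In the row of tubule segment factors the 8 called genes all lie to the left of 0.

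Among 7 measured paralogs of the 8 factors, 2 fell and none was called higher (median -0.09), with the same counts under median scaling (median 0.05). Lhx5 fell by 0.43 ± 0.06 and Lhx2 by 0.46 ± 0.09 (SE; limma with Benjamini-Hochberg adjustment, adjusted p = 0.0159 and 0.0311), and were called in 11 and 9 of 16 alternatives. Pax3, Lhx9, Sall2 and Sall4 were not called. Egr1, which this list counts as a paralog, was higher on both SerpinB2-/- arrays (0.41 ± 0.19, SE) and was not called either. Of 17 measured cofactors and partners, 1 fell (median -0.02), against 1 higher and none lower with median scaling (median 0.12). The 1 that fell was Basp1, a corepressor that binds Wt1 protein, at -0.33 ± 0.07 (limma with Benjamini-Hochberg adjustment, adjusted p = 0.0413), called in 8 of 16 alternatives. Paxip1 and Kdm6a, which work with Pax2, and Ep300 and Crebbp, general coactivators, were not called. The antisense neighbours Emx2os and Lhx1os gave -0.07 and -0.17 and were not called, and Wt1os and Hnf4aos were not well above background.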

How the data were processed

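Total RNA (150 ng per sample) was labelled with Cy3 and hybridised to 1-colour Agilent arrays, per the labels' protocols. The deposited scanner files hold intensity values that Agilent Feature Extraction 10.7.3.1 had corrected for background, per the file headers, with build mm9 for positions. The deposited table of the authors' processed values holds a linear signal without a stated method. The 75th percentile was 1500 in every column, each of which followed the scanner intensity by 1 factor (0.698 to 0.787), its medians were 76 and 77 (wild type) and 68 and 71 (SerpinB2-/-), no centring or turned direction was found, and it served as an alternative.

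Samples were grouped by the genotype label. The spots of a probe were averaged as log2 values, without control spots (17263) and outlier spots, and the 75th percentile of each array was subtracted. No spot was saturated. A probe was tested if over 50% of spots passed the scanner's test for being well above background on both arrays of at least 1 genotype. Every such probe was fitted with limma 3.58.1 in R 4.3.3 (eBayes without trend, Benjamini-Hochberg over 24174 probes, threshold 0.05). The precision is limited by the 4 arrays: an exact permutation test of 2 against 2 cannot go below p = 0.333 (two-sided). Where a probe was dim on both arrays of a genotype, "at least N-fold" sets the bright mean against a limit, which on each dim array is the lowest signal well above background, or the signal of the probe where that is higher. Summed marker levels add the signals of a list's brightest tested probes.

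Of the array's probes, 28322 were matched by accession to a RefSeq gene table of GRCm38.p6, 3405 by symbol and 243 by an older symbol, and 7459 kept the file's name. The 8 members were found at the same 11 probes by the file's name and by the updated symbol. The named genes are every probe of the members, up to 4 called genes with the largest difference in each list, and the 3 genes nearest to each called member. Some genes that this rule names are not reported here. Others named in the text (uncalled genes and further called members of a list) were chosen after their values were seen. The members and lists were chosen with earlier results of these data known, and lists are described by counts and medians only. Alternatives changed the background correction, normalization, scaling, source of the values, filter, summary of probes, spots, prior, test, replicate block and arrays included.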

Additional observations from a re-analysis of the deposited data

How the results depend on the processing

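Of the 24174 probes tested, 3858 were called. The count was 6839 with median scaling (76.3% of them higher, against 36.3%), 4 with no filter on dim probes (39429 tested, 7714 at an unadjusted p under 0.05) and 0 with an unmoderated test (5837 at an unadjusted p under 0.05), and 1218 to 2245 with 1 array left out. With quantile normalization 3111 probes were called, and 47.3% of these were higher in SerpinB2-/-. Of the member probes, 2 were called, against 4 with median scaling, 0 with no filter (5 at an unadjusted p under 0.05), 0 with the unmoderated test (1 at an unadjusted p under 0.05) and 0 to 3 with 1 array left out. Of 90 list genes, 21 were called, against 0 with no filter (27 unadjusted), 0 with the unmoderated test (23 unadjusted) and 12 to 14 with 1 array left out. Wt1 and Hnf4a kept their size and lost their calls with no filter (limma, adjusted p = 0.117 and 0.0982) and with the unmoderated test (adjusted p = 0.222 and 0.177). The cause of these changes was not tested. Counts in every other alternative were within 1.5 times of these.

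Signs turned only where a difference lay near 0. The gapped Lhx1 probe gave 0.087 with quantile normalization, 0.092 with median scaling, 0.042 as the mean of both probes, and -0.23 to 0.15 with 1 array left out. The other Lhx1 probe gave -0.075 to 0.33 and Emx2 -0.045 to 0.12 with 1 array left out. A left-out array leaves 1 sample, assumed to vary like the other genotype.

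Replicate numbers are shared by the genotypes, and no label says that they pair samples. The deviations of same-numbered arrays correlated at 0.213. With the replicate block, 2835 probes, 2 member probes and 16 list genes were called. The probes' brightness over background limits Pax2, Hnf4g and the targets not measured.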
